A study of Mus musculus with 18 samples.

Results

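The compounds labelled C16 and RE were set directly against each other in mouse bone marrow cells that carry AE9a, an alternatively spliced AML1-ETO, in which RUNX1 is fused to RUNX1T1. The comparison takes the 3 AE9a libraries treated with C16 and the 3 AE9a libraries treated with RE, 6 of the 18 libraries of the series, with every gene of the count table. The full series holds cells of AE9a and wild-type (WT) genotype under DMSO, C16 or RE, with 3 libraries in each of 6 groups. No DMSO library enters here, so "higher in C16" always means higher than under RE and says nothing of the level before treatment. All 6 libraries share the AE9a genotype and the selection of bone marrow cells for Kit (cKit+), the receptor of stem cell factor. The series states that WDR5 and MLL1 were inhibited, but which compound acts on which protein, the doses and the times are not in the labels. The differences below are therefore between treatments as given, not between matched doses. The vector or promoter that drives AE9a, the animals, their age and any pooling are not stated in the sources used here. As nothing ties the 3 libraries of a group to separate animals or cultures, p-values measure only the spread between these libraries, which may be technical.

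AML1-ETO fuses the DNA-binding part of the transcription factor RUNX1 to most of the corepressor RUNX1T1 (ETO), and the shorter AE9a form causes leukemia readily in mice. WDR5 is a scaffold that joins MLL1 (gene Kmt2a) to RBBP5, ASH2L and DPY30, and the assembled complex methylates histone H3 at lysine 4. Menin, the product of Men1, tethers MLL1 to chromatin, and the HOXA genes are the best known genes kept active by this machinery in blood progenitors. Kit-positive marrow is a mixture: stem cells, progenitors of granulocytes, monocytes, red cells and megakaryocytes, and mast cells all carry Kit.

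Library totals ran from 18211787 to 25344961 fragments in the 6 libraries. Levels are given as CPM, the usual library-size-scaled count, after TMM scaling between libraries, and differences as the fitted log2 of C16 over RE with the standard error (SE) of the fit. Kit (GRCm39, chromosome 5, 75735647 to 75817382, plus strand) was abundant in every library, at 269.5, 313 and 211 CPM in C16 libraries 1 to 3 and 1333, 1568 and 1553 CPM in RE libraries 1 to 3. The library labelled C16 replicate 3 stood apart from the other libraries of its group. By root mean square log2 difference it lay 0.654 and 0.682 from C16 replicates 1 and 2, which were 0.346 apart. The RE libraries lay 0.347 to 0.415 apart, and C16 libraries lay 1.1 to 1.56 from RE libraries. Runx1t1 (chromosome 4, 13742628 to 13895056, plus strand) is the mouse gene of the ETO part of the fusion. It stood at 2.35, 4.08 and 0.201 CPM in C16 libraries 1 to 3 and 34.6, 43.2 and 43.6 CPM in RE libraries 1 to 3 (log2 difference -4.13 ± 0.56, edgeR adjusted p = 0.000481). The level in C16 replicate 3 was thus far below that in the other AE9a libraries and inside the range of 0 to 0.377 CPM in the 6 WT libraries given C16 or RE. Whether the transgene carries mouse sequence, and so how much of its transcript this gene counts, is not given. For several lists, though not for all that it moves, medians are given with and without C16 replicate 3.

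C16 and RE left very different transcriptomes. Of 14321 tested genes, 10556 (73.7%) differed at an adjusted p under 0.05 (edgeR quasi-likelihood test, Benjamini-Hochberg over all tested genes), and such genes are named "called" from here on. The calls divided almost evenly, with 5294 (37.0%) higher and 5262 (36.7%) lower in C16. Counts of called members in the gene lists below are to be read beside these shares. The median of all tested genes was 0.01 on the log2 scale, and the median size was 0.57. Large differences were mostly in 1 direction. Called genes at least 2-fold apart numbered 3855 (26.9%), of which 1300 (9.08%) were higher and 2555 (17.8%) lower in C16. At 4-fold or more there were 137 higher and 1364 lower genes, at 8-fold 16 and 793, and at 32-fold 1 and 94. In 11254 genes (78.6%) the 3 C16 libraries lay wholly above or below the 3 RE libraries. Without C16 replicate 3, 5508 genes were higher and 5445 lower, and 1404 and 2670 were so by 2-fold or more. Of the 10556 calls, 10250 were called in the same direction in that fit and 0 changed sign.

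**Figure D1:**
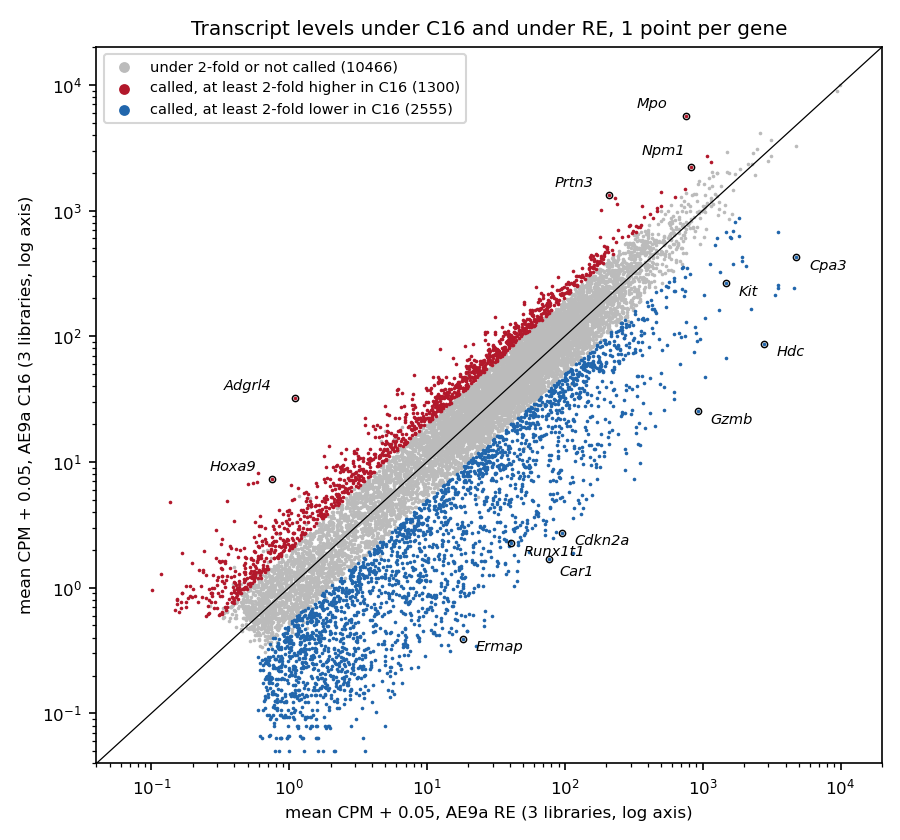
Mean CPM of each tested gene in the 3 AE9a RE libraries (horizontal, log axis) against the 3 AE9a C16 libraries (vertical, log axis), with 0.05 added to both; the line marks equal levels. The 2555 genes called at least 2-fold lower in C16 (blue) spread far below the line, down to Ermap and Car1, while the 1300 called at least 2-fold higher (red) stay closer to it.

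Among genes with at least 5 CPM in the higher group, no overlap of libraries and an adjusted p under 0.05, the 15 most lowered in C16 were Ppbp, Add2, Atp1b2, Chrna5, Ermap, Prss8, C430002N11Rik, Gm29677, Lgals7, Etl4, Slc6a19, Asprv1, Hoxb13, Car1 and Ceacam10. Their log2 differences ran from -6.18 for Ppbp, the platelet basic protein chemokine, to -5.50 for Ceacam10. Add2, which encodes a subunit of the membrane skeleton protein adducin, had 1.9, 3.53 and 0.101 CPM under C16 and 72.9, 95 and 176 CPM under RE. Hoxb13, a posterior HOX gene, had 0.0999, 0.158 and 0.0503 CPM under C16 and 4.84, 5.52 and 5.14 CPM under RE. By the condition of no overlap, all 15 had lower levels in each C16 library than in any RE library. Of the 15 most raised, those described here were Adgrl4, Hoxa7, Sgip1, Hoxa9, Mpo, Tet1, Nebl, Btla, Ttpa, Gria3, Prtn3, Bcat1, Dio2 and Chdh, with log2 differences from 4.95 to 2.59. Tet1, which oxidizes methylated cytosine in DNA, had 13.2, 13.7 and 13 CPM under C16 and 1.54, 2.03 and 2.12 CPM under RE (log2 difference 2.80 ± 0.14, edgeR adjusted p = 5.49e-06). Bcat1, which transaminates branched-chain amino acids, had 36.3, 39.3 and 39.4 CPM under C16 and 6.93, 4.65 and 6.89 CPM under RE (log2 difference 2.65 ± 0.15, edgeR adjusted p = 8.75e-06). Gria3, an AMPA receptor subunit gene, had 74.3, 72.3 and 91 CPM under C16 and 13.4, 12.6 and 11.2 CPM under RE (log2 difference 2.67 ± 0.11, edgeR adjusted p = 3.94e-06).

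Mast cell markers were lower in C16 without exception. Of 19 tested markers, 19 were lower and 0 higher (edgeR; also 0 higher at an unadjusted p under 0.05, by DESeq2 and by limma-voom), with a median log2 difference of -3.43; Enpp3 had 0 counts. Their summed level was 2928, 3672 and 1121 CPM in C16 libraries 1 to 3 and 24395, 28043 and 27987 CPM in RE libraries 1 to 3. Every RE library thus held far more mast cell transcript than any C16 library, and C16 replicate 3 held the least. Hdc (chromosome 2, 126435579 to 126465942, minus strand), which makes histamine, stood at 105, 124 and 31.3 CPM in C16 libraries 1 to 3 and 2768, 2776 and 2789.7 CPM in RE libraries 1 to 3 (log2 difference -5.00 ± 0.51, edgeR adjusted p = 0.000124). Cma1, the mast cell chymase, stood at 288, 422 and 18.1 CPM under C16 and 4044, 5147 and 4498 CPM under RE (log2 difference -4.23 ± 0.99, edgeR adjusted p = 0.00689). Tph1, which starts serotonin synthesis, had 77.2, 118 and 7.15 CPM under C16 and 1248, 1534 and 1629.8 CPM under RE (log2 difference -4.44 ± 0.88, edgeR adjusted p = 0.00313). Cpa3, the mast cell carboxypeptidase, had 528, 669 and 79.2 CPM under C16 and 4347, 4872 and 5161 CPM under RE (log2 difference -3.49 ± 0.71, edgeR adjusted p = 0.00363). The 4 genes were named on condition that no C16 library overlapped an RE library, so none could. In each of them C16 replicate 3 was the lowest library. Without that library the median of the markers was -2.95 and all 19 were still lower. The tryptase genes Tpsab1 and Tpsb2, at -3.73 and -3.85 on the log2 scale, are close copies, as are several Mcpt genes, so fragments could be shared among them. In bulk RNA, fewer cells of a type and less RNA per cell cannot be told apart, here or for any marker below.

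Basophils share the high-affinity IgE receptor with mast cells, and 9 of 11 tested basophil markers were lower and 1 higher, with a median of -2.90, or -2.55 without C16 replicate 3. Fcer1a, the IgE-binding chain of that receptor, stood at 8.39, 11.1 and 0.554 CPM under C16 and 94.9, 128 and 105 CPM under RE (log2 difference -3.99 ± 0.63, edgeR adjusted p = 0.000999). Cd200r3, an activating receptor of mast cells and basophils, had 46.7, 57.8 and 3.98 CPM under C16 and 555, 647 and 659 CPM under RE, and Il4, the cytokine, had 0.949, 1.62 and 0.151 CPM under C16 and 12.5, 13.3 and 13.8 CPM under RE. Mcpt8, a defining basophil protease, was not called (-0.80 ± 0.36 on the log2 scale), though each C16 library lay below every RE library. Without C16 replicate 3 Mcpt8 was called lower (-0.47, edgeR adjusted p = 0.0396). Prss34, another basophil protease, was higher (1.48 ± 0.49) with overlapping libraries. The call of Prss34 was lost by limma-voom and without RE replicate 2, RE replicate 3, C16 replicate 1 or C16 replicate 2. The basophil markers that were lower include Fcer1a, Cpa3, Ms4a2 and Gata2, which are on the mast cell list too. Of 8 tested eosinophil markers, 6 were lower and 0 higher (edgeR; 0 also at an unadjusted p under 0.05, by DESeq2 and by limma-voom). Among them Prg2, the major basic protein, had 12, 15 and 12.8 CPM under C16 and 52.4, 66.9 and 43.3 CPM under RE (log2 difference -2.03 ± 0.17, edgeR adjusted p = 5.13e-05), and Epx, the eosinophil peroxidase, differed by -1.66 ± 0.20.

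Red cell and platelet genes followed the same direction. Of 25 tested erythroid markers, 21 were lower and 0 higher (edgeR; also 0 higher at an unadjusted p under 0.05, by DESeq2 and by limma-voom), with a median of -3.08, or -2.70 without C16 replicate 3. The summed level was 108, 109 and 40.8 CPM in C16 libraries 1 to 3 and 811, 943 and 972 CPM in RE libraries 1 to 3. Car1 (chromosome 3, 14831274 to 14873425, minus strand), the red cell carbonic anhydrase, stood at 2.2, 2.3 and 0.403 CPM in C16 libraries 1 to 3 and 65.4, 83.8 and 79.9 CPM in RE libraries 1 to 3 (log2 difference -5.51 ± 0.37, edgeR adjusted p = 1.69e-05). Hbb-bs, an adult beta globin gene with a near-identical neighbour in Hbb-bt, had 12.9, 12.3 and 0.403 CPM under C16 and 237, 293 and 286 CPM under RE (log2 difference -4.97 ± 0.75, edgeR adjusted p = 0.000815). Ank1, the ankyrin that anchors the red cell membrane skeleton, had 2.1, 1.98 and 0.453 CPM under C16 and 33.3, 35.5 and 41.2 CPM under RE, and Ermap, a red cell surface protein, 0.549, 0.475 and 0 CPM under C16 and 15.6, 19.2 and 20.1 CPM under RE. Hba-a1, Slc4a1, Aqp1 and Alas2 lay below RE in the fit but were not called, at -2.16 ± 0.86, -1.58 ± 0.72, -1.36 ± 0.57 and -0.77 ± 0.34. Without C16 replicate 3, Hba-a1 (-1.62, edgeR adjusted p = 0.00973) and Aqp1 (-0.86, 0.0252) were called lower, and Slc4a1 and Alas2 were not. Of 18 tested markers of megakaryocytes and platelets, 16 were lower and 1, Thbs1, was higher (0.71 ± 0.20), with a median of -2.48, or -2.07 without C16 replicate 3. Ppbp had 0.4, 0.475 and 0 CPM in C16 libraries 1 to 3 and 37.3, 17.6 and 12.8 CPM in RE libraries 1 to 3 (log2 difference -6.18 ± 0.70, edgeR adjusted p = 0.0002). F2rl2, the thrombin receptor PAR3, had 5.69, 6.18 and 2.11 CPM under C16 and 47.3, 51.4 and 50.5 CPM under RE, and Gp5, a platelet glycoprotein, 3.3, 4.44 and 0.806 CPM under C16 and 27.2, 23.2 and 29.5 CPM under RE. Rab27b, which moves granules to the cell surface in both platelets and mast cells, had 39.2, 49.9 and 6.49 CPM under C16 and 587, 646 and 639.6 CPM under RE.

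**Figure D2:**
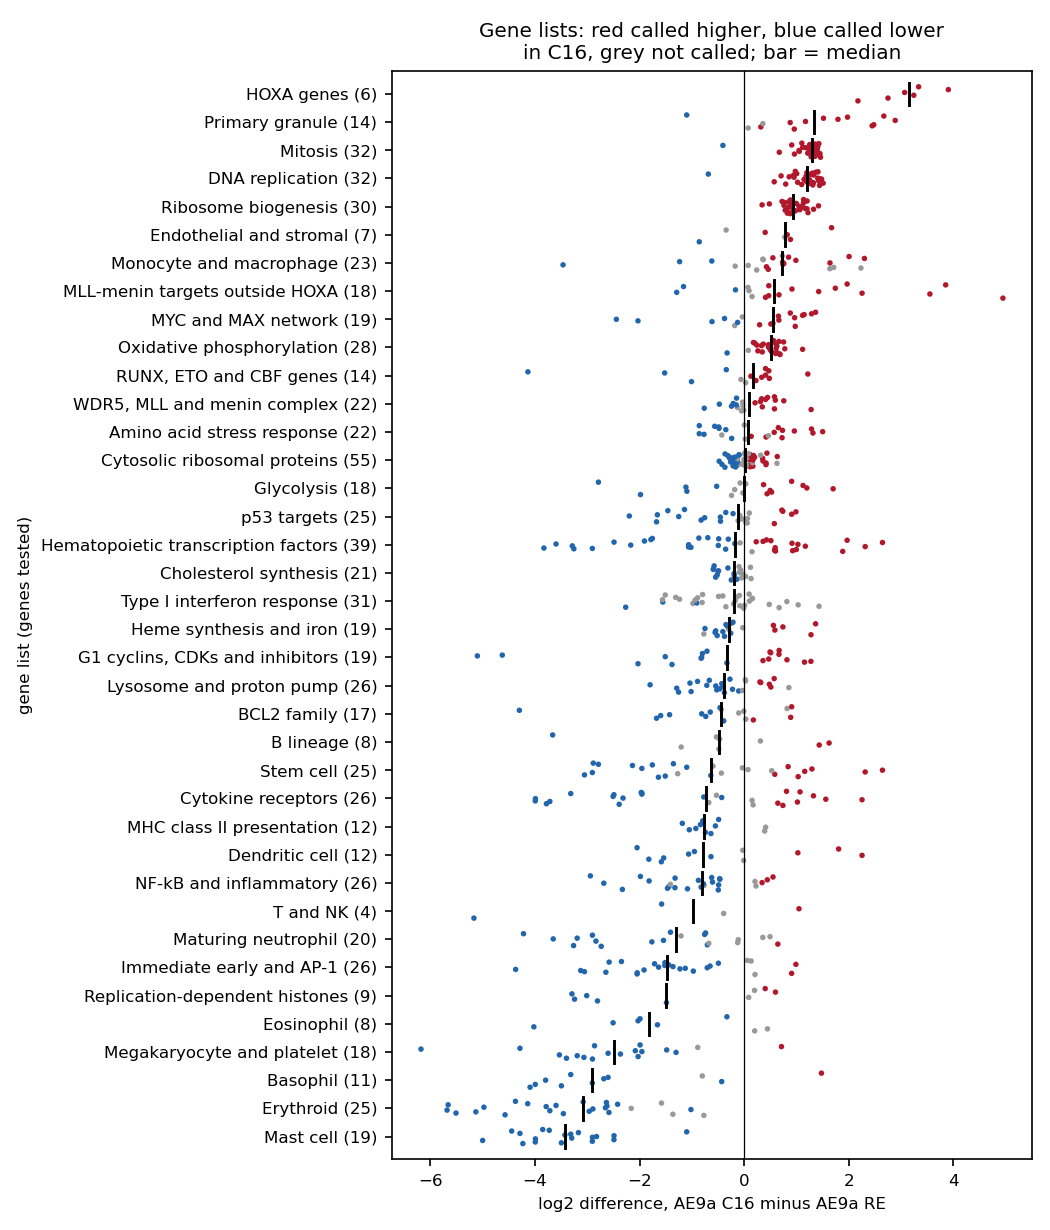
Log2 difference between AE9a C16 and AE9a RE (horizontal axis) for every tested member of 38 gene lists, 1 row per list ordered by its median (black bar), with the number tested in brackets; red points were called higher in C16, blue lower, grey not called. The mast cell, erythroid, basophil and megakaryocyte lists lie wholly or almost wholly on the lower side, and the HOXA, primary granule, mitosis, DNA replication and ribosome biogenesis lists wholly or mostly on the higher side.

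GATA factors bind the letters AGATAA in the promoters and enhancers of mast cell and erythroid genes. Gata1 and Gata2, described below, were lower in C16, and promoter windows were searched for these letters on both strands in the 250 bases before the start of each gene (RefSeq, GRCm38.p6; the counts are on GRCm39). A window was found for 10827 of 14321 tested genes, and 7.63% held the motif. The share was 5.56% of 953 matched genes at least 2-fold higher in C16, 11% of 1899 at least 2-fold lower and 14% of 584 at least 8-fold lower. It was 6 of 18 matched erythroid markers and 5 of 15 matched mast cell markers, beside the 7.63% of all matched tested genes. Counted by single window and not by gene, 9.99% of all 32851 windows held the motif. The letters CACGTG, the E-box read by MYC and MAX, were in a window of 9.58% of matched tested genes. The share was 9.34% of those at least 2-fold higher and 6.34% of those at least 8-fold lower. These are counts of letters and not of bound sites. Windows were not matched for base composition, and whether GATA factors had a part in the differences was not tested. Not every lowered gene holds them: no match was found in the windows of Hdc, Tph1, Cma1, Ppbp, Add2 and Ermap. Below are the windows of a mast cell protease gene, an IgE receptor gene and a globin gene, all lower in C16 and chosen because they hold the motif, each 5′ to 3′ on the minus strand, with the motif, on either strand, in capitals. On GRCm38.p6 they lie at chr3:20242182-20242431 for Cpa3, chr1:173227230-173227479 for Fcer1a and chr7:103827929-103828178 for Hbb-bs.
Cpa3: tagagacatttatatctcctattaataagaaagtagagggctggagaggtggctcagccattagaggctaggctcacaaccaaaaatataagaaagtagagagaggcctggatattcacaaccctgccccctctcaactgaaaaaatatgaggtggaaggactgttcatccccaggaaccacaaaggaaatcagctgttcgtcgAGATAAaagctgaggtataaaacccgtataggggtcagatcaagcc
Fcer1a: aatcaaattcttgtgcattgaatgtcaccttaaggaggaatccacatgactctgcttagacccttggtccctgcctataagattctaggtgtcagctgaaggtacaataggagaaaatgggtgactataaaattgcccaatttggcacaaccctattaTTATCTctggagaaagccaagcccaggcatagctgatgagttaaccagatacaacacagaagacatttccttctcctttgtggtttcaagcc
Hbb-bs: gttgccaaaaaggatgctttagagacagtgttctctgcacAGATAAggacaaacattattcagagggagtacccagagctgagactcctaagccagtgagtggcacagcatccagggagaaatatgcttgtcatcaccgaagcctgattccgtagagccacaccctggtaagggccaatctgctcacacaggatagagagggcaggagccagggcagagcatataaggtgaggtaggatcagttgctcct
In the Cpa3 and Hbb-bs windows the motif reads along the gene's own strand, and in the Fcer1a window it lies on the opposite strand and so appears as TTATCT.

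The transcription factors of these lineages differed with their markers. Of 39 tested hematopoietic transcription factors, 17 were higher and 20 lower (43.6% and 51.3%, beside 37.0% and 36.7% of all tested genes). Gata1, which drives red cell, platelet, mast cell and eosinophil fates, stood at 10.4, 12.4 and 2.22 CPM in C16 libraries 1 to 3 and 70.2, 80.6 and 92.6 CPM in RE libraries 1 to 3 (log2 difference -3.26 ± 0.47, edgeR adjusted p = 0.00068). Gata2, of early progenitors and mast cells, stood at 141, 158 and 53.6 CPM under C16 and 811, 941 and 887 CPM under RE (log2 difference -2.90 ± 0.38, edgeR adjusted p = 0.000421). Klf1, the erythroid Kruppel-like factor, had 1.1, 0.99 and 0.352 CPM under C16 and 8.74, 9.82 and 11.5 CPM under RE, and Gata3 had 2.35, 2.89 and 0.503 CPM under C16 and 25.8, 30.5 and 27.4 CPM under RE. Mitf, a regulator of mast cells, and Tal1, a partner of GATA factors, differed by -2.49 ± 0.15 and -1.75 ± 0.12. Higher were factors of granulocyte and monocyte progenitors. Cebpa (chromosome 7, 34818718 to 34821353, plus strand), required to form them, stood at 171, 179 and 208 CPM in C16 libraries 1 to 3 and 51, 52.3 and 47.9 CPM in RE libraries 1 to 3 (log2 difference 1.88 ± 0.08, edgeR adjusted p = 4.11e-06), with no overlap. Irf8, of monocytes and dendritic cells, differed by 1.03 ± 0.23, and Spi1, which encodes PU.1, had 232, 218 and 247 CPM under C16 and 180.0, 173 and 166 CPM under RE (log2 difference 0.43 ± 0.06, edgeR adjusted p = 0.00042). Mecom and Hlf, both tied to stem cells, differed by 2.64 ± 0.43 and 2.31 ± 0.16. The mast cell list, which itself holds Gata2 and Mitf, moved with these factors over the summed range given above; its part in them was not tested.

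Of 26 tested cytokine receptors, 8 were higher and 14 lower (30.8% and 53.8%, beside 37.0% and 36.7% of all tested genes), with a median of -0.72, or -0.44 without C16 replicate 3. Kit differed by -2.49 ± 0.15 (edgeR adjusted p = 1.12e-05), or -2.34 without C16 replicate 3. Il1rl1, the receptor of interleukin 33 on mast cells, had 265, 339 and 30.5 CPM under C16 and 3051, 3494 and 3548 CPM under RE (log2 difference -3.99 ± 0.80, edgeR adjusted p = 0.00333). Csf2rb2, a signalling chain for interleukin 3, had 300.3, 363 and 103 CPM under C16 and 3070.3, 3640.3 and 3819 CPM under RE (log2 difference -3.78 ± 0.46, edgeR adjusted p = 0.000273), and Epor, the erythropoietin receptor, 1.1, 1.86 and 0.101 CPM under C16 and 13.4, 14.7 and 13.9 CPM under RE (log2 difference -3.71 ± 0.53, edgeR adjusted p = 0.000603). Flt3, a receptor of lymphoid and myeloid progenitors, was higher, at 22.5, 20.5 and 29.7 CPM under C16 and 5.66, 4.78 and 4.77 CPM under RE (log2 difference 2.25 ± 0.17, edgeR adjusted p = 2.65e-05). Il6ra, Csf1r and Csf3r, receptors of myeloid cells, were higher by 1.33 ± 0.14, 0.74 ± 0.13 and 0.64 ± 0.14.

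Primary granule genes, which promyelocytes and their precursors transcribe, were higher in C16. Of 14 tested markers, 11 were higher and 1 lower, with a median of 1.34 and a summed level of 14041, 13806 and 15737 CPM in C16 libraries 1 to 3 and 5294, 5566 and 5184 CPM in RE libraries 1 to 3. Mpo (chromosome 11, 87684610 to 87695238, plus strand), the myeloperoxidase, stood at 5315, 5062 and 6486 CPM in C16 libraries 1 to 3 and 738, 831 and 709.9 CPM in RE libraries 1 to 3 (log2 difference 2.89 ± 0.11, edgeR adjusted p = 3.6e-06). Prtn3, proteinase 3, stood at 1317, 1272 and 1408 CPM under C16 and 215, 213 and 199.6 CPM under RE (log2 difference 2.67 ± 0.05, edgeR adjusted p = 3.27e-06), Elane, neutrophil elastase, at 875, 904 and 1261 CPM under C16 and 176, 208 and 162 CPM under RE, and Ctsg, cathepsin G, at 1195, 1189.9 and 1402 CPM under C16 and 242, 235 and 217 CPM under RE. The member that was lower, Srgn, encodes the granule proteoglycan serglycin and is on the mast cell list as well (-1.10 ± 0.06). Mpo, Prtn3, Elane and Ctsg were named on condition of no overlap, so all C16 libraries exceeded all RE libraries by that rule.

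Genes of later neutrophils went the other way, with 13 lower and 1 higher of 20 tested and a median of -1.31. These are 65% and 5%, beside 36.7% and 37.0% of all tested genes. Ltf, the lactoferrin of secondary granules, had 38, 34.9 and 15.4 CPM under C16 and 411, 410.4 and 289 CPM under RE (log2 difference -3.65 ± 0.35, edgeR adjusted p = 8.65e-05), Ngp, another secondary granule protein, 133, 125 and 161 CPM under C16 and 1197, 1139.6 and 794 CPM under RE (log2 difference -2.90 ± 0.18, edgeR adjusted p = 1.24e-05), and Cd177, a neutrophil surface protein, 14.2, 12.8 and 16.6 CPM under C16 and 145, 151 and 121 CPM under RE (log2 difference -3.26 ± 0.12, edgeR adjusted p = 3.59e-06). The member called higher was Csf3r; with replicate numbers as blocks 2 members were higher. The summed level was 3402, 3256 and 3225 CPM in C16 libraries 1 to 3 and 7025, 6347 and 5073 CPM in RE libraries 1 to 3, which abundant members dominate. Single members still differed in C16 replicate 3, as Ltf did. Without that library the median was -1.005. Of 23 monocyte and macrophage markers, 11 were higher and 3 lower (47.8% and 13%, beside 37.0% and 36.7% of all tested genes). Their median was 0.73, and 9 of them were not called. F13a1, the coagulation factor XIII A chain of monocytes, had 122, 133 and 119 CPM under C16 and 40.6, 44 and 35.4 CPM under RE (log2 difference 1.64 ± 0.09, edgeR adjusted p = 7.09e-06), and Ms4a6c 113, 113 and 99 CPM under C16 and 33.3, 28.6 and 19 CPM under RE (log2 difference 2.01 ± 0.19, edgeR adjusted p = 8.01e-05). Clec10a, a lectin of macrophages and dendritic cells, was lower at 6.94, 7.01 and 7.2 CPM under C16 and 49.7, 76.2 and 107 CPM under RE (log2 difference -3.46 ± 0.29, edgeR adjusted p = 4.65e-05), and so was the Fc receptor gene Fcgr3 (-1.23 ± 0.04). C1qa, C1qb and C1qc, the complement genes of tissue macrophages, were not called, at 1.64 ± 1.01, 2.23 ± 0.93 and 1.71 ± 0.94. Without C16 replicate 3 they were called higher, at 2.18, 2.76 and 2.24 (edgeR adjusted p = 0.00732, 0.00022 and 0.00333). In that fit 15 of the monocyte and macrophage markers were higher and 3 lower. Of 12 dendritic cell markers, 3 were higher (Flt3, Irf8 and Tcf4) and 7 lower. These are 25% and 58.3%, beside 37.0% and 36.7% of all tested genes.

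**Figure D3:**
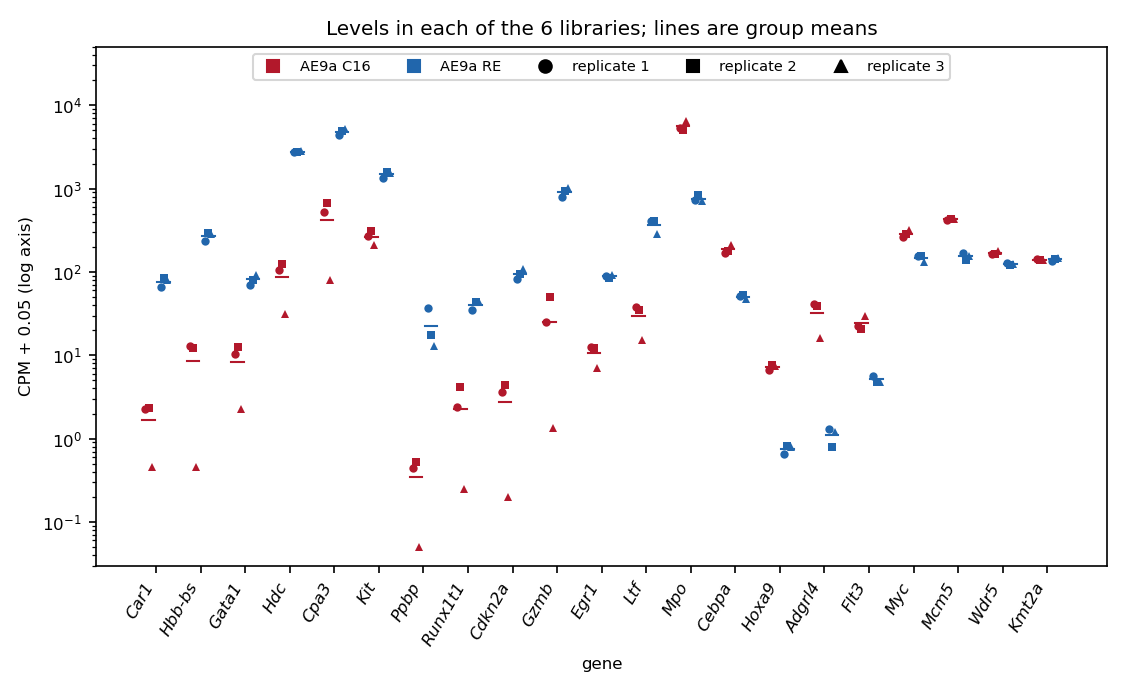
CPM plus 0.05 (vertical, log axis) of 21 genes in each of the 6 libraries; red is AE9a C16, blue AE9a RE, marker shapes are replicates 1 to 3 and short lines are group means. From Car1 to Ltf each C16 library lies below every RE library, with C16 replicate 3 (red triangles) lowest; from Mpo to Wdr5 each C16 library lies above, and for Kmt2a the groups overlap.

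The HOXA genes were higher in C16 throughout. Of 11 genes of the cluster, 6 had enough counts to test; 6 of 6 were higher and 0 lower (edgeR; 0 also at an unadjusted p under 0.05, by DESeq2 and by limma-voom), with a median of 3.16. Hoxa9 (chromosome 6, 52200077 to 52203169, minus strand), which sustains self-renewal in myeloid leukemia, stood at 6.64, 7.61 and 7.45 CPM in C16 libraries 1 to 3 and 0.605, 0.776 and 0.742 CPM in RE libraries 1 to 3 (log2 difference 3.34 ± 0.16, edgeR adjusted p = 5.41e-06). Hoxa7 stood at 7.19, 7.8 and 9.31 CPM under C16 and 0.825, 0.345 and 0.477 CPM under RE (log2 difference 3.90 ± 0.28, edgeR adjusted p = 2.26e-05). Hoxa5 had 1.9, 2.06 and 1.81 CPM under C16 and 0.055, 0.259 and 0.265 CPM under RE, Hoxa6 2.5, 2.26 and 2.47 CPM under C16 and 0.33, 0.345 and 0.159 CPM under RE and Hoxa3 1.05, 1.11 and 1.66 CPM under C16 and 0.275, 0.129 and 0.159 CPM under RE, with log2 differences of 3.24 ± 0.36, 3.07 ± 0.26 and 2.75 ± 0.37. No C16 library overlapped an RE library for any of these genes. Under RE every one of these genes stayed under 1 CPM. The Hoxa3 gene model spans Hoxa5 and Hoxa6, and counting ignored strand, so fragments could be shared. The 5 genes that were not tested had 0 to 62 counts over the 6 libraries. With a minimum of 5 CPM in 3 libraries only 2 of the 6 remain in the test, both higher.

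**Figure D4:**
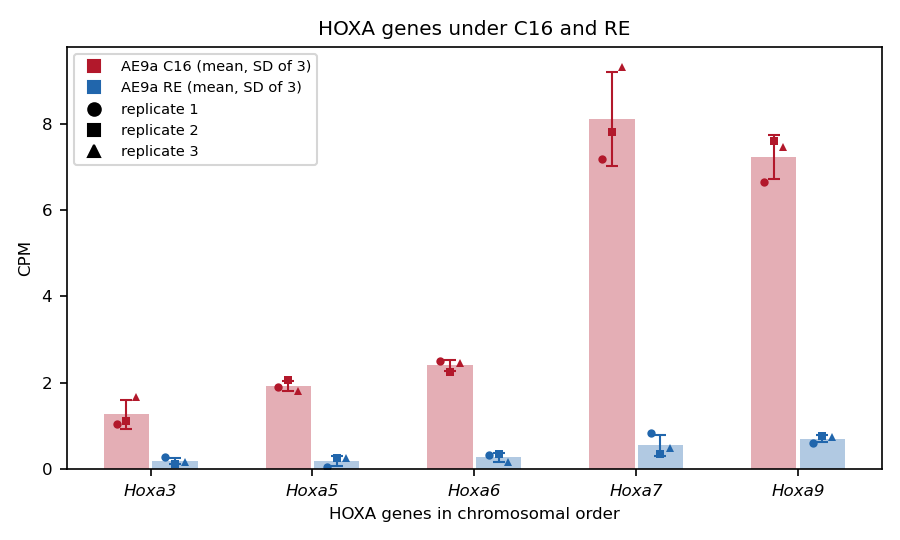
CPM of 5 HOXA genes (bars are means of 3 libraries, error bars SD, points the libraries) in AE9a C16 (red) and AE9a RE (blue), in chromosomal order. Every C16 library lies above every RE library for each gene, with Hoxa9 at 6.64 to 7.61 CPM under C16 and 0.605 to 0.776 CPM under RE.

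Other genes known as targets of MLL and menin were mixed. Of 18 tested, 12 were higher and 3 lower, with a median of 0.57, beside 37.0% and 36.7% of all tested genes. Adgrl4, an adhesion receptor gene, had the largest difference among the genes named for being higher, at 41.4, 38.7 and 16.2 CPM in C16 libraries 1 to 3 and 1.26, 0.732 and 1.17 CPM in RE libraries 1 to 3 (log2 difference 4.95 ± 0.47, edgeR adjusted p = 8.07e-05). Eya1, a transcriptional coactivator with phosphatase activity, differed by 3.55 ± 0.41, and Sox4, a transcription factor gene, by 1.97 ± 0.08. Mef2c differed by 1.74 ± 0.12. Meis1, the DNA-binding partner of HOXA9, did not pass the test, with 15.8, 17 and 13.1 CPM under C16 and 14.1, 14 and 15.6 CPM under RE (log2 difference 0.07 ± 0.11, edgeR adjusted p = 0.58). Pbx3, another such partner, was lower (-1.16 ± 0.13). Frmd4b was also lower (-1.29 ± 0.10).

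Of 22 tested genes of the WDR5, MLL and menin complexes themselves, 11 were higher and 6 lower (50.0% and 27.3%, beside 37.0% and 36.7% of all tested genes). Their median was 0.10, and members ran from -0.76 to 1.28. Wdr5 stood at 163, 166 and 178 CPM in C16 libraries 1 to 3 and 127, 121 and 124 CPM in RE libraries 1 to 3 (log2 difference 0.45 ± 0.05, edgeR adjusted p = 0.00012). Kmt2a, which encodes MLL1, stood at 142, 138 and 139 CPM under C16 and 136, 144 and 146 CPM under RE (log2 difference -0.02 ± 0.04, edgeR adjusted p = 0.611), with overlapping libraries. Men1 had 86.1, 83.9 and 76.5 CPM under C16 and 72.4, 68.6 and 72.3 CPM under RE (log2 difference 0.21 ± 0.05, edgeR adjusted p = 0.0107), and its call was lost without RE replicate 2 (edgeR adjusted p = 0.0592). Dpy30, a core subunit, was the member furthest apart, at 69.8, 82.1 and 78.2 CPM under C16 and 31.5, 32.8 and 30.4 CPM under RE (log2 difference 1.28 ± 0.07, edgeR adjusted p = 7.4e-06). Rbbp5 was higher (0.41 ± 0.03), and Ash2l was not called (-0.05 ± 0.03). Psip1, which encodes the menin partner LEDGF, was higher (0.60 ± 0.05), and Hcfc2 was lower (-0.76 ± 0.04). Nanog, which the series names, had 0 counts in the 6 libraries.

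Among genes of the RUNX and ETO network, 8 were higher and 4 lower of 14 tested. Those shares are 57.1% and 28.6%, beside 37.0% and 36.7% of all tested genes. Runx1 (which may hold fragments of the fusion transcript) stood at 138, 147 and 129 CPM in C16 libraries 1 to 3 and 348, 418 and 418 CPM in RE libraries 1 to 3 (log2 difference -1.52 ± 0.09, edgeR adjusted p = 9.2e-06). Cbfa2t3, the ETO family member that works in erythroid and megakaryocytic cells, had 87.7, 95.8 and 84 CPM under C16 and 168, 189 and 181 CPM under RE (log2 difference -1.01 ± 0.07, edgeR adjusted p = 1.61e-05). Cbfb, the partner of RUNX proteins, was higher by 0.23 ± 0.04, and Prmt1, an arginine methyltransferase that binds AE9a, by 1.22 ± 0.04, at 272, 275 and 267 CPM under C16 and 122, 112 and 116 CPM under RE. Without C16 replicate 3 the difference of Runx1t1 was -3.61 and that of Runx1 -1.46.

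Proliferation genes were higher in C16 with few exceptions. Of the DNA replication genes 31 were higher and 1 lower in C16 of 32 tested members, with a median log2 difference of 1.20. Mcm5, a subunit of the replicative helicase, stood at 423, 431 and 427 CPM in C16 libraries 1 to 3 and 167, 139 and 153 CPM in RE libraries 1 to 3 (log2 difference 1.48 ± 0.07, edgeR adjusted p = 4.48e-06). Gins1, Mcm6 and Cdc45 of the same helicase differed by 1.51 ± 0.06, 1.44 ± 0.05 and 1.44 ± 0.07. The member that was lower was Rfc2, a clamp loader subunit (-0.68 ± 0.05). Of the mitosis genes 31 were higher and 1 lower in C16 of 32 tested members, with a median log2 difference of 1.30. Aurka, a spindle kinase, had 123, 122 and 108 CPM under C16 and 43.4, 43 and 41.8 CPM under RE (log2 difference 1.46 ± 0.06, edgeR adjusted p = 3.75e-06), and Cdc20, an activator of the anaphase complex, 152, 154 and 156 CPM under C16 and 58.7, 53.8 and 56.5 CPM under RE (log2 difference 1.45 ± 0.04, edgeR adjusted p = 3.27e-06). Pttg1, the securin, was the member that was lower (-0.41 ± 0.09). C16 replicate 3 did not stand apart in the replication genes, whose summed level was 5813, 5800.5 and 5765 CPM in C16 libraries 1 to 3 and 2756, 2492 and 2568 CPM in RE libraries 1 to 3.

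Of 19 tested regulators of G1, 9 were higher and 10 lower (47.4% and 52.6%, beside 37.0% and 36.7% of all tested genes). The inhibitors Cdkn2a (p16 and ARF) and Cdkn2b (p15), neighbours on chromosome 4, were far lower. Cdkn2a had 3.55, 4.32 and 0.151 CPM in C16 libraries 1 to 3 and 82.7, 93.6 and 108 CPM in RE libraries 1 to 3 (log2 difference -5.10 ± 0.54, edgeR adjusted p = 0.000142) and Cdkn2b had 0.549, 0.674 and 0 CPM under C16 and 9.07, 10.2 and 12.6 CPM under RE (log2 difference -4.62 ± 0.53, edgeR adjusted p = 0.000208). Cdkn1a (p21), Cdkn1b (p27), Cdkn1c (p57) and Cdkn2d (p19) were lower by smaller amounts, at -0.82 ± 0.17, -0.81 ± 0.11, -1.51 ± 0.36 and -0.80 ± 0.13, while Cdkn2c (p18) was higher (0.67 ± 0.13). The D cyclins were lower. Ccnd2 had 321, 359 and 297 CPM under C16 and 1204, 1365 and 1416 CPM under RE (log2 difference -2.03 ± 0.09, edgeR adjusted p = 4.28e-06), and Ccnd1 stood at 5.54, 6.3 and 13.6 CPM under C16 and 18.9, 25.9 and 20.9 CPM under RE, with C16 replicate 3 the highest C16 library. The E cyclins Ccne1 and Ccne2 were higher, by 1.15 ± 0.08 and 1.28 ± 0.11.

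Genes for making ribosomes were higher in C16, though not those for the ribosome's own proteins. Of 30 tested ribosome biogenesis genes, 30 were higher and 0 lower (edgeR; 0 also at an unadjusted p under 0.05, by DESeq2 and by limma-voom), with a median of 0.93. Npm1, nucleophosmin, had 2293, 2294 and 2064 CPM in C16 libraries 1 to 3 and 863, 783 and 837 CPM in RE libraries 1 to 3 (log2 difference 1.42 ± 0.06, edgeR adjusted p = 3.76e-06). Ncl, nucleolin, had 2782, 2826 and 2532 CPM under C16 and 1148, 1033 and 1062 CPM under RE (log2 difference 1.33 ± 0.06, edgeR adjusted p = 4.37e-06), and Dkc1, the pseudouridine synthase of rRNA, 241, 239 and 243 CPM under C16 and 104, 101 and 105 CPM under RE (log2 difference 1.22 ± 0.03, edgeR adjusted p = 3.27e-06). Of 55 cytosolic ribosomal protein genes, 18 were higher and 21 lower (32.7% and 38.2%, beside 37.0% and 36.7% of all tested genes). Their median of 0.02 changed sign with the scaling, and 9 to 11 were higher when any RE replicate was left out. Their differences ran only from -0.48 ± 0.06 for Rpl38 to 0.63 ± 0.04 for Rps2, and many have processed copies that could take fragments. Small nucleolar RNA genes, which guide rRNA modification, were tested in 87 cases. Of these, 55.2% were called higher and 1.15% lower, beside 37.0% and 36.7% of all tested genes. Their levels were low, with no mean above 9.58 CPM over the C16 and RE libraries.

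Myc (chromosome 15, 61857190 to 61862210, plus strand) stood at 265, 283 and 315 CPM in C16 libraries 1 to 3 and 156, 153 and 132 CPM in RE libraries 1 to 3 (log2 difference 0.97 ± 0.09, edgeR adjusted p = 6.38e-05). Of 19 tested genes of the MYC and MAX network and its targets, 12 were higher and 5 lower, with a median of 0.55. These are 63.2% and 26.3%, beside 37.0% and 36.7% of all tested genes. The 5 include Mxd1 and Mxd4, which compete with MYC for MAX: Mxd4 had 27.6, 30.3 and 27.1 CPM under C16 and 142, 162 and 158 CPM under RE (log2 difference -2.44 ± 0.07, edgeR adjusted p = 3.27e-06) and Mxd1 63.3, 59.7 and 42.8 CPM under C16 and 230.4, 226 and 221 CPM under RE (log2 difference -2.03 ± 0.14, edgeR adjusted p = 1.94e-05). The targets Odc1, Cad and Srm were higher by 1.12 ± 0.05, 0.98 ± 0.04 and 0.88 ± 0.04. Tfrc, the transferrin receptor, had 768, 774 and 712 CPM under C16 and 312, 270.0 and 292 CPM under RE.

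Of the oxidative phosphorylation genes 26 were higher and 1 lower in C16 of 28 tested members, with a median log2 difference of 0.51. Cyc1, of complex III, had 186, 185 and 193 CPM under C16 and 89.6, 85.9 and 84.7 CPM under RE (log2 difference 1.12 ± 0.04, edgeR adjusted p = 3.27e-06), and Atp5f1a, of the ATP synthase, 1193, 1179.7 and 1184 CPM under C16 and 760.2, 717 and 734 CPM under RE (log2 difference 0.69 ± 0.03, edgeR adjusted p = 5.96e-06). Glycolysis was mixed, with 8 higher and 5 lower of 18 tested (44.4% and 27.8%, beside 37.0% and 36.7% of all tested genes). Its neutral median of 0.00 changed sign with the scaling and was 0.25 without C16 replicate 3. Slc2a3, a glucose transporter, was lower at 53.2, 65.5 and 27.1 CPM under C16 and 315, 343 and 349 CPM under RE (log2 difference -2.79 ± 0.30, edgeR adjusted p = 0.00015), and Pfkl, a phosphofructokinase, higher at 225, 239 and 184 CPM under C16 and 99.8, 93.5 and 89 CPM under RE (log2 difference 1.20 ± 0.10, edgeR adjusted p = 4.99e-05). Phgdh, Psat1, Shmt2 and Mthfd2, of serine synthesis and one-carbon metabolism, were higher by 1.50 ± 0.06, 0.96 ± 0.04, 1.29 ± 0.04 and 1.32 ± 0.06. Over the whole amino acid stress list 10 were higher and 8 lower of 22 (45.5% and 36.4%, beside 37.0% and 36.7%). The stress genes Ddit3 and Trib3 were among the lower ones (-0.77 ± 0.10 and -0.86 ± 0.13). Of 21 cholesterol synthesis genes, 12 (57.1%, beside 36.7%) were lower by edgeR. By edgeR, DESeq2 and limma-voom 0 were higher, with 1 higher at an unadjusted edgeR p under 0.05. The largest of these differences was that of Mvk, mevalonate kinase (-0.59 ± 0.07); without C16 replicate 3, 2 members were higher, and without C16 replicate 1, 7 were lower. Heme synthesis and iron genes were 5 higher and 11 lower of 19 (26.3% and 57.9%, beside 37.0% and 36.7%). Alas1, the housekeeping first enzyme of heme synthesis, was higher at 399, 375 and 417 CPM under C16 and 179.7, 169.8 and 142 CPM under RE (log2 difference 1.28 ± 0.09, edgeR adjusted p = 2.33e-05).

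Immediate early genes, transcribed within minutes of growth factor signals, were lower in C16, with 21 lower and 2 higher of 26 tested and a median of -1.48. Egr1 stood at 12.6, 12.3 and 7 CPM in C16 libraries 1 to 3 and 89.2, 84.6 and 91.7 CPM in RE libraries 1 to 3 (log2 difference -3.05 ± 0.20, edgeR adjusted p = 1.48e-05). Fosb, an AP-1 subunit, had 3.4, 1.15 and 0.201 CPM under C16 and 29.3, 32.1 and 35.7 CPM under RE (log2 difference -4.37 ± 0.56, edgeR adjusted p = 0.000371), Egr3 1.05, 1.47 and 1.46 CPM under C16 and 13, 11.1 and 10.9 CPM under RE (log2 difference -3.12 ± 0.16, edgeR adjusted p = 6.98e-06), and Dusp6, the ERK phosphatase, 28.3, 33 and 21.6 CPM under C16 and 156, 187 and 177 CPM under RE (log2 difference -2.64 ± 0.16, edgeR adjusted p = 1.02e-05). The 2 that were higher were Dusp2 and Klf4 (0.91 ± 0.09 and 0.99 ± 0.26). NF-kB and inflammatory genes were 19 lower and 3 higher of 26, with a median of -0.80. These are 73.1% and 11.5%, beside 36.7% and 37.0% of all tested genes. Traf1, an NF-kB target, had 5.54, 5.9 and 1.61 CPM under C16 and 33.3, 34.1 and 34.1 CPM under RE (log2 difference -2.94 ± 0.37, edgeR adjusted p = 0.000333), and Tnfaip3, which encodes the feedback inhibitor A20, 24.8, 24.1 and 32.2 CPM under C16 and 103, 111 and 106 CPM under RE (log2 difference -1.98 ± 0.11, edgeR adjusted p = 8.69e-06). Il6 and the chemokine gene Ccl2 differed by -2.68 ± 0.32 and -2.33 ± 0.69; Ccl2 had 56.5, 56 and 5.84 CPM in C16 libraries 1 to 3, so replicate 3 widened its SE. Without RE replicate 2 the call of Ccl2 was lost (edgeR adjusted p = 0.0513). Mast cells also transcribe Il6, Il4 and chemokines, and the mast cell list moved with these genes; its part was not tested.

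Of 25 p53 targets, 5 were higher and 12 lower (20% and 48%, beside 37.0% and 36.7% of all tested genes). Phlda3, a repressor of AKT, had 8.19, 9.35 and 4.83 CPM under C16 and 30.7, 35.4 and 37 CPM under RE (log2 difference -2.19 ± 0.22, edgeR adjusted p = 0.000111), and Bbc3, which encodes PUMA, 8.99, 10.4 and 8.26 CPM under C16 and 27.7, 30.6 and 30.3 CPM under RE (log2 difference -1.67 ± 0.10, edgeR adjusted p = 1.1e-05). Pmaip1 (NOXA) was higher (0.91 ± 0.10), as was Tigar (0.99 ± 0.07), while Mdm2 was lower (-0.45 ± 0.06) and Bax was not called (0.03 ± 0.04). In the BCL2 family 3 were higher and 9 lower of 17 (17.6% and 52.9%, beside 37.0% and 36.7%). Bcl2 itself was higher (0.89 ± 0.11), and Bcl2l1 and Mcl1 were lower (-0.81 ± 0.09 and -0.46 ± 0.06). Bcl2a1a, Bcl2a1b and Bcl2a1d, near-identical copies whose counts are uncertain, were lower.

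MHC class II genes were 10 lower and 0 higher of 12 tested (edgeR; 0 also at an unadjusted p under 0.05, by DESeq2 and by limma-voom; 1 higher with replicate numbers as blocks), with a median of -0.76. H2-Eb1 had 29.7, 31.5 and 28.3 CPM under C16 and 64.9, 64.1 and 74.2 CPM under RE (log2 difference -1.18 ± 0.07, edgeR adjusted p = 1.19e-05), H2-Aa 41.3, 45.4 and 44.3 CPM under C16 and 87.4, 90.1 and 93.6 CPM under RE, and Ciita, the master regulator of these genes, differed by -0.74 ± 0.16. Lysosome genes were 17 lower and 5 higher of 26 (65.4% and 19.2%, beside 36.7% and 37.0% of all tested genes). Ctsd, cathepsin D, was among the lower, at 735, 744 and 567 CPM under C16 and 1630.1, 1687 and 1682 CPM under RE (log2 difference -1.29 ± 0.10, edgeR adjusted p = 3.82e-05). Interferon response genes depended on C16 replicate 3 and on the fit. By edgeR 0 were higher, as at an unadjusted p under 0.05, by DESeq2 and by limma-voom, and 3 were lower (Ifi27l2a, Isg20 and Irf9) of 31 tested. Their summed level was 2239, 2022 and 574 CPM in C16 libraries 1 to 3 and 2869, 2703 and 1574 CPM in RE libraries 1 to 3, so that replicate 3 was lowest in both groups. Without C16 replicate 3, 5 were higher and 6 lower, and the median turned from -0.20 to 0.21. With replicate numbers as blocks 4 were higher and 12 lower. The calls of Isg20 and Irf9 were lost without RE replicate 1 (edgeR adjusted p = 0.0824 and 0.0773) and without RE replicate 2 (0.079 and 0.0784), and that of Isg20 without C16 replicate 2 (0.0552).

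Stem cell genes were mixed, with 7 higher and 12 lower of 25 tested (28% and 48%, beside 37.0% and 36.7% of all tested genes). Txnip, an inhibitor of thioredoxin, had 115, 126 and 60.8 CPM under C16 and 652, 792 and 787 CPM under RE (log2 difference -2.88 ± 0.27, edgeR adjusted p = 8.07e-05), and Tek, the TIE2 receptor, 1.5, 1.19 and 0.151 CPM under C16 and 5.5, 5.52 and 8.96 CPM under RE. Cd34, of progenitors, and Hoxb4 were higher (1.03 ± 0.08 and 1.16 ± 0.23). Of other cell types few markers could be tested. For T and NK cells 4 of 21 listed genes passed the filter on low counts, and the defining genes Cd3e, Cd8b1 and Bcl11b had 0 counts. Gzmb, granzyme B, on that list but transcribed by mast cells too, stood at 25, 49.8 and 1.31 CPM in C16 libraries 1 to 3 and 802, 939.9 and 1016 CPM in RE libraries 1 to 3 (log2 difference -5.17 ± 0.97, edgeR adjusted p = 0.00245). B lineage genes had 8 tested, 2 higher and 1 lower (3 lower with replicate numbers as blocks), while Ms4a1, which encodes CD20, had 8 counts over the 6 libraries. Endothelial and stromal genes had 7 tested, 4 higher and 1 lower (0 lower with blocks, by DESeq2 and without RE replicate 1, RE replicate 2, C16 replicate 1 or C16 replicate 2), while Cdh5, a defining endothelial gene, had 20 counts. Of 24 listed replication-dependent histone genes 9 were tested, 2 higher and 5 lower (1 higher with blocks, and 0 by DESeq2 and without RE replicate 2 or 3). H1f2, at 11.8, 13.6 and 8.71 CPM under C16 and 68.3, 76.3 and 94.8 CPM under RE, was lower; H1f0, also lower, is a linker histone made outside S phase. Their copies are near-identical, so these counts are uncertain.

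The differences also formed runs along the chromosomes. Of neighbouring tested genes, 32 runs of 5 or more were all called at least 2-fold apart in the same direction, 3 of them higher in C16. The higher runs were the 6 tested HOXA genes with Gm52902 on chromosome 6, 7 genes of the Ms4a cluster on chromosome 19 (11352827 to 11582150), which encode membrane proteins of myeloid cells, and Snhg12 with its 4 small nucleolar RNAs on chromosome 4. The lower runs included the Cd200r genes on chromosome 16 (44586141 to 44903496), the tryptase genes on chromosome 17 (25562219 to 25655308), Il4 and Il13 with 3 neighbours on chromosome 11, the Padi genes on chromosome 4, the Pira and Pirb receptor genes on chromosome 7 and 9 Speer4 and related genes on chromosome 5. Hoxc9, Hoxc6 and Hoxc4 lay in a lower run on chromosome 15, opposite in direction to the HOXA run. Several of these families, Pira and Speer4 above all, are near-identical copies whose counts are uncertain. By type, long noncoding RNA genes were 15.8% higher and 44.7% lower of 1141 tested, and protein-coding genes 39.5% and 36.6% of 12285. By mean CPM, 31.9% of the fifth of genes with the lowest level were called at least 2-fold lower, beside 10.3% of the fifth with the highest. Without a fold limit 37.7% and 34.6% were called lower, and 16.7% and 50.1% higher.

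How far the lowered genes were lowered differed between C16 libraries. For the 793 genes at least 8-fold lower, the median level was 6.93%, 9.37% and 1.58% of the RE mean in C16 replicates 1, 2 and 3, and 63, 19 and 211 of them had 0 counts there. These genes were chosen on the mean of all 3 libraries, so the percentages are a description. Among the 2555 genes at least 2-fold lower, C16 replicate 3 was the lowest C16 library in 70.2%, beside 45.0% of all tested genes. Among the 1300 at least 2-fold higher it was the highest in 50.3%, beside 34.7%.

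**Figure D5:**
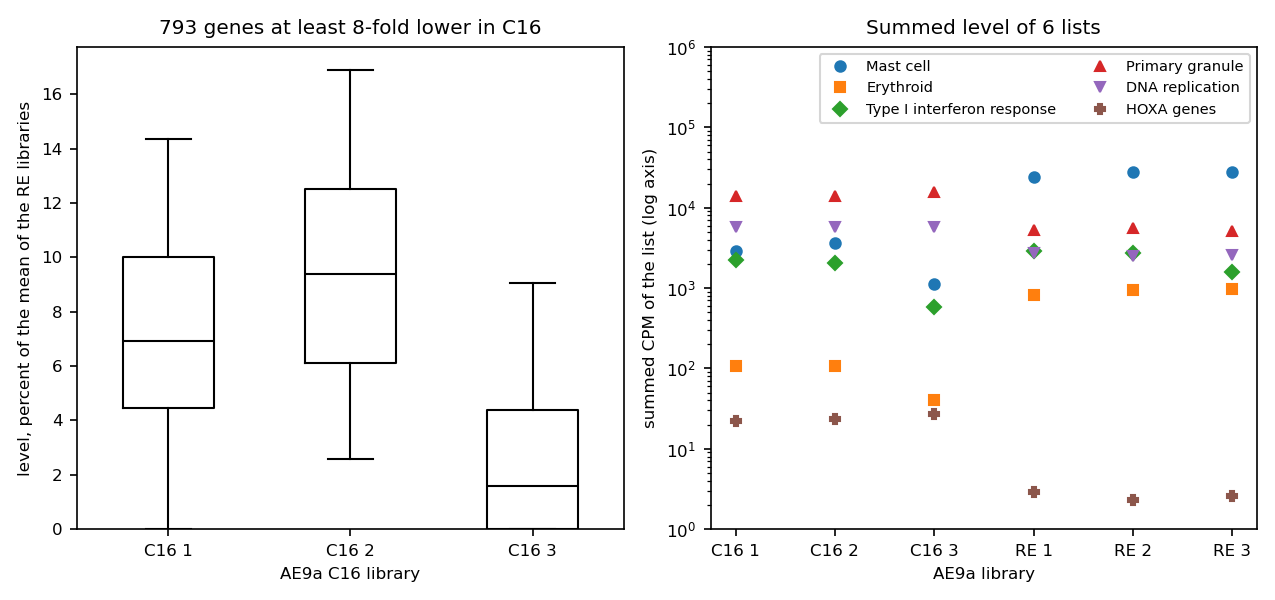
Left, level of 793 genes at least 8-fold lower in C16 as a percent of the RE mean in each C16 library (box: quartiles and median; whiskers: 5th to 95th percentile), with medians of 6.93, 9.37 and 1.58%. Right, summed CPM of 6 gene lists in each of the 6 libraries (log axis): mast cell and erythroid sums fall furthest in C16 replicate 3, interferon sums are lowest in replicate 3 of both groups, and primary granule, replication and HOXA sums differ by group.

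The same contrast in WT cells was the nearest comparison in the series. Whether the difference between C16 and RE itself differed between genotypes was tested in 1 fit over the 12 AE9a and WT libraries given C16 or RE. It did so for 2672 of 15414 genes (17.3%), with 858 (5.57%) more positive and 1814 (11.8%) more negative in AE9a cells. The WT library C16 replicate 2 lay 0.7 to 0.739 from the 3 AE9a C16 libraries, while WT C16 replicates 1 and 3 lay 1.24 to 1.47 from them. With replicate numbers as blocks within genotype the count was 4992. Without WT C16 replicate 2 it was 6369, and it fell to 1353 without AE9a RE replicate 3, 1382 without AE9a RE replicate 2, 1363 without WT C16 replicate 1, 1488 without WT C16 replicate 3 and 1527 without AE9a C16 replicate 1. For Car1 the log2 difference was -5.51 in AE9a cells and 1.58 ± 0.58 in WT cells, the latter not called (edgeR adjusted p = 0.0704), where C16 libraries stood at 1.54, 0.838 and 1.13 CPM and RE libraries at 0.377, 0.299 and 0.475 CPM (difference between genotypes -7.11 ± 0.72, edgeR adjusted p = 0.00044). Hdc differed between genotypes by -4.15 ± 0.63 (edgeR adjusted p = 0.00294), Kit by -2.08 ± 0.41 (0.00932), Gata2 by -2.26 ± 0.52 (0.0179), Mxd4 by -2.54 ± 0.24 (0.000388) and Cebpa by 1.56 ± 0.39 (0.0232). Each of these was called with the blocks too. Mpo differed by 1.96 ± 0.96 without blocks, which was not called (edgeR adjusted p = 0.176), and by 1.97 ± 0.20 with them, which was (0.00136). Its WT libraries 1 to 3 stood at 1336, 5404 and 1081 CPM under C16 and 595, 2804 and 697 CPM under RE. For Hoxa9 (0.72 ± 0.46, edgeR adjusted p = 0.293), Myc (0.20 ± 0.26, 0.612) and Npm1 (0.38 ± 0.26, 0.324) a difference between genotypes was not detected in that fit, nor with blocks (edgeR adjusted p = 0.111, 0.36 and 0.195). Hoxa9 was higher under C16 than under RE by 2.62 ± 0.33 in WT cells and Npm1 by 1.04 ± 0.19.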

How the data were processed

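RNA from cKit+ bone marrow cells was extracted, made into libraries and sequenced on an MGI platform by a service provider, per the labels' protocols. The authors deposited whole-number counts of fragments per gene for 41079 genes of GRCm39. The submitters' processing notes name HISAT2 2.1.0, FastQC 0.11.9, DESeq2, Subread with featureCounts 2.0.3, and fastp 0.23.2. Per the file headers, primary alignments of read pairs were summed over the exons of each gene by featureCounts 1.6.2, ignoring strand. Which version made the counts is not known. All 18 columns matched a sample, with 0 columns left over and 0 pairs of identical libraries.

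From these counts the 3 AE9a C16 and 3 AE9a RE libraries were fitted with edgeR 4.0.16 in R 4.3.3 (filterByExpr, TMM scaling, quasi-likelihood F test, Benjamini-Hochberg adjustment over 14321 genes, threshold 0.05). The common biological coefficient of variation was 0.116, and 0.0616 without C16 replicate 3. The difference between genotypes came from 1 fit over 12 libraries (15414 genes). Promoter windows came from RefSeq for GRCm38.p6, and gene coordinates from the deposited tables.

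Named genes were the 15 largest differences in each direction and up to 4 per list (adjusted p under 0.05, at least 5 CPM in the higher group, no overlap of libraries), fixed genes (Runx1t1, Runx1, Wdr5, Kmt2a, Men1, Nanog, Kit, Hoxa9, Meis1, Myc, Gata1, Gata2, Spi1, Cebpa, Mpo), HOXA genes, the 5 largest genotype differences in each direction, and runs of 5 or more neighbouring genes. Other members named in the text, given as exceptions or as known regulators, were chosen after their values were seen. A few genes that the rule names are not reported here. The comparison, the members and the 38 gene lists were chosen with earlier results of these data known. Lists are described by counts and medians, with no test of the list.

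C16 and RE libraries share replicate numbers. Deviations from the group means correlated by 0.112, 0.1 and 0.108 for the pairs numbered 1, 2 and 3. Each was just over the limit of 0.1 set for a pairing, while C16 replicate 1 with RE replicate 2 reached 0.076. The labels do not say what the numbers mark. Values in the text come from fits without blocks unless blocks are named. Fits with the replicate numbers as blocks are given as an alternative. On simulated counts for 14321 genes, 200 genes were changed, far fewer than were called in the data. There 77% of 2-fold and 95% of 4-fold changes were recovered. Of the unchanged genes 19 were called, which made 9.95% of the calls false. For the genotype difference over 15414 genes, again with 200 changed, 23% and 71% were recovered. These shares hold for that setting only. Alternatives were other scalings, filters and tools (DESeq2 1.42.0, limma 3.58.1), replicate blocks, the spread from all 9 AE9a libraries, and leaving out each library. The depth of 18211787 to 25344961 fragments limits what can be said of genes with few counts.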

Additional observations from a re-analysis of the deposited data

Results flagged for a closer look

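The difference between C16 and RE was itself different in AE9a and WT cells for 2672 of 15414 genes (edgeR, 12 libraries), which drew attention because the same contrast gave unlike values in both genotypes. Values here are the AE9a difference minus the WT difference on the log2 scale. Among the genes with the largest differences in AE9a cells, it was positive for Tet1 (2.22), Btla (1.62) and Gria3 (1.55). It was negative for Add2 (-4.67), Atp1b2 (-3.96), C430002N11Rik (-5.26), Gm29677 (-4.67), Etl4 (-5.90), Slc6a19 (-3.94), Asprv1 (-2.87), Car1 (-7.11) and Ceacam10 (-3.74). Among the fixed genes it was -1.49 for Runx1, -2.08 for Kit, -2.26 for Gata2 and 1.56 for Cebpa. The WT levels of Kit were 112, 126 and 117 CPM under C16 and 207, 78.5 and 185 CPM under RE, far below those of AE9a cells under RE.

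The 5 largest positive differences between genotypes were those of Fn1 (3.90), Snhg11 (3.31), Nod2 (2.62), Ms4a4c (2.56) and Amot (2.35). Fn1, fibronectin, stood in WT cells at 4.07, 6.80 and 4.42 CPM under C16 and 10.7, 33.3 and 11.3 CPM under RE. The 5 largest negative ones were those of Gm52919 (-8.94), Clca3a1 (-8.01), Gpc4 (-7.36), Bmp2 (-7.30) and Lhfpl6 (-7.28). In WT cells Gm52919 was near the floor, at 0.0515, 0.0493 and 0.162 CPM under C16 and 0 CPM in every RE library. Gpc4, a glypican, stood in WT cells at 24.9, 0.69 and 25.1 CPM under C16, so that replicate 2 was unlike the others, and at 1.19, 1.26 and 2.11 CPM under RE. WT C16 libraries 1 to 3 were alike in this for Clca3a1 (99.9, 0.443 and 106 CPM), Bmp2 (12.3, 0 and 13.3 CPM) and Lhfpl6 (18.9, 0.246 and 23.9 CPM). For these genes WT RE replicate 2 was also the lowest WT RE library. The distance of WT C16 replicate 2 from the AE9a C16 libraries was shorter than that of WT C16 replicates 1 and 3. Where these genes were tested in the fit without WT C16 replicate 2, none lost its call. The part of that library in these differences was not tested further.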

How the results depend on the processing

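Under other scalings, tools, filters, replicate blocks and a spread from all 9 AE9a libraries, 8544 to 11120 genes were called between C16 and RE, and 9645 to 10953 when 1 library was left out; 46.9% to 51.1% of the calls were higher in C16. Without a filter the median of all genes was -0.10, with 5212 higher and 5908 lower. A minimum of 5 CPM in 3 libraries, which tests fewer genes, left 2362 genes at least 2-fold apart, 798 higher and 1564 lower. The number of genes that differed between genotypes was 8755 by limma-voom with sample quality weights, 4992 with the replicate block within genotype and 7964 with both WT libraries numbered 2 left out; leaving out 1 library gave 1353 (without AE9a RE replicate 3) to 6369 (without WT C16 replicate 2). The cause was not tested. With the replicate block 10289 genes were called between C16 and RE, 10083 of them among the 10556 and in the same direction; of the 2672 genotype differences 2595 were kept. The block changed no call between C16 and RE among the named genes, and the list counts it moved by over 1.5 times stand beside those lists. Of the named genes' genotype differences, 57 were called only with the block, Mpo among them, and 2 were lost, Gm52919 (-9.03, edgeR adjusted p = 0.0998) and Rpl38 (-0.28, 0.059). Of the values of single genes under all alternatives, 2783 kept direction and side of the threshold, 62 lost the call and 1 reversed: Meis1, not called in any case, at -0.000504 without C16 replicate 2 and up to 0.18 without C16 replicate 3. The lost calls were those of Ccl2, Isg20, Irf9, Men1 and Nod2 between C16 and RE and of Ms4a4c, Amot, Gm52919, Clca3a1, Bmp2 and Lhfpl6 between genotypes. Of list counts, 1087 stayed within 1.5 times and 53 did not. List medians changed sign for cytosolic ribosomal proteins, glycolysis, interferon response, histones and endothelial genes. Depth limits genes with few counts, the HOXA genes among them.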
